A study of Mus musculus with 6 samples.

Results

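Nmi, Ifi35, Epsti1, Xaf1, Herc6, Tor3a, Sp100, Cmpk2 and Pml are interferon-stimulated genes measured here in a mouse colorectal cancer culture under the label IRF2, for an introduced open reading frame, and in the same culture with GFP. These 9 genes, of 18193 genes with a probe set of their own on the array, were taken by gene symbol, and all 24 of their probe sets are described. They were chosen with the IRF2 over GFP differences of these arrays in view, so their levels and differences are a description and carry no test. The cells are the iKAP primary culture #3346. iKAP is known as a mouse colorectal cancer model in which Apc and Trp53 are deleted in the intestinal epithelium by a villin-driven Cre, and both groups share that background and a tetracycline-free culture medium. Stable expression of IRF2 or GFP was from the lentiviral vector pLenti6.3, per the design text, and 3 arrays of total RNA carry the IRF2 label and 3 the GFP control label. All 6 arrays come from a single named culture. Whether replicate arrays stem from separately grown cells is unstated, so the p-values reflect array-to-array spread alone, and that spread may be technical. In bulk RNA of this kind, fewer expressing cells and less RNA per cell cannot be told apart.

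Interferons act through cell-surface receptors and JAK kinases that activate STAT transcription factors, which together with IRF9 bind the interferon-stimulated response element and switch on a shared set of antiviral genes. IRF2 belongs to the same family of DNA-binding proteins as IRF9 and IRF1 and is best known as an antagonist of interferon-driven transcription at IRF sites, although it also activates some genes. The 9 genes described here are targets of that pathway with different duties: protein scaffolds (Nmi, Ifi35), a cell death cofactor (Xaf1), a ubiquitin-like ligase (Herc6), nuclear body proteins (Pml, Sp100), a mitochondrial nucleotide kinase (Cmpk2), an endoplasmic reticulum ATPase (Tor3a) and Epsti1, which is known in human tumours as a gene induced by contact between epithelial and stromal cells.

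Irf2 was read by 1 probe set, whose suffix (_s_at) marks probes that can match more than a single transcript, at intensities of 37.0, 36.6 and 35.2 on the arrays labelled IRF2 and of 65.4, 60.5 and 62.0 on the GFP control arrays. It was thus lower under the IRF2 label (log2 fold change -0.79, SE 0.06, limma adjusted p = 1.73e-07), where an introduced IRF2 seen by these probes would read higher. The sources do not say where in the transcript the Irf2 probes lie or whether they can see the introduced open reading frame. The label could thus not be checked with them, and every direction below is given for the arrays labelled IRF2. Across the array, 4642 of 12795 genes above the intensity filter (an intensity of 11.3), or 36.3%, passed an adjusted p of 0.05. Of 12 epithelial markers, 8 lay above the filter, and 2 of them rose and 2 fell. The keratin Krt8 averaged 4999 and Krt18 5306 on the arrays labelled IRF2, and 3533 and 5015 on the GFP control arrays, while Krt20, Cdx1, Vil1 and Muc1 lay under the filter. The adhesion genes Cdh1 and Epcam fell by 0.75 (SE 0.04) and 0.81 (SE 0.11; -0.43 for Epcam averaged over its probe sets) on the log2 scale. The summed intensity of the epithelial markers ran from 15875 to 16009 on the arrays labelled IRF2 and from 14287 to 14441 on the GFP control arrays. Keratins made up most of this sum, and the 8 markers above the filter had a median log2 fold change of -0.07. Of 11 measured leukocyte markers, 6 lay above the filter, and the summed intensity of the 11 ran from 326 to 337 on the arrays labelled IRF2 and from 295 to 332 on the GFP control arrays. Among the 6, only Cd14 passed the threshold, with means of 137 on the arrays labelled IRF2 and 120 on the GFP control arrays. It rose by 0.18 (SE 0.06, limma adjusted p = 0.035), a call lost when some single arrays were left out. Ptprc averaged 4.96 on the arrays labelled IRF2 and 4.48 on the GFP control arrays, inside the range of the tryptophan controls. Of 6 fibroblast markers above the filter, Pdgfra rose by 0.70 (SE 0.10; 0.36 averaged over its probe sets), Acta2 rose by 0.37 (SE 0.06; 0.11, not passing when so averaged) and Pdgfrb fell by 0.40 (SE 0.08; -0.16, not passing when so averaged). Fibroblast markers summed to between 259 and 276 on the arrays labelled IRF2 and to between 237 and 241 on the GFP control arrays (6 of 10 above the filter). Endothelial markers summed to between 95.5 and 108 on the arrays labelled IRF2 and to between 103 and 113 on the GFP control arrays (3 of 7 above the filter). Among the 3, only Egfl7 passed and fell by 0.22 (SE 0.07, limma adjusted p = 0.0315), a call also lost when some single arrays were left out. For the transferrin receptor control, the 3'/5' ratio was 3.81 to 4.47 on the arrays labelled IRF2 and 3.61 to 3.78 on the GFP control arrays, and the 5' probe set of 18S rRNA read 2099 to 2254 on the arrays labelled IRF2 and 1798 to 2034 on the GFP control arrays. Other quality controls overlapped between the groups. The beta-actin 3'/5' ratio was 0.996 to 1.023 on the arrays labelled IRF2 and 1.001 to 1.017 on the GFP control arrays. The 3' probe set of 18S rRNA read 500 to 591 against 446 to 529, and the middle probe set 722 to 895 against 623 to 801. The part of the transferrin receptor and 5' 18S rRNA shifts in the results below was not tested.

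The promoters of Nmi, Ifi35, Xaf1 and Sp100, genes with differences described below, are shown together with that of Rbm43, the chromosomal neighbour of Nmi, because IRF proteins act through short GAAA-based motifs and these windows show where such letters lie. Rbm43 and the motifs were chosen after values were seen. The windows are from RefSeq (GRCm38.p6), run from 250 bases before to 50 bases after the annotated start and are written 5' to 3' on the gene's strand. Capitals mark matches on either strand to the interferon-stimulated response element core (GAAA, any 2 bases, GAAA), to the IRF core AANNGAAA, which is contained in the response element core, or to the gamma-activated site TTCNNNGAA, which overlaps the IRF core in Ifi35.
Nmi, chr2:51973159-51973458, minus strand: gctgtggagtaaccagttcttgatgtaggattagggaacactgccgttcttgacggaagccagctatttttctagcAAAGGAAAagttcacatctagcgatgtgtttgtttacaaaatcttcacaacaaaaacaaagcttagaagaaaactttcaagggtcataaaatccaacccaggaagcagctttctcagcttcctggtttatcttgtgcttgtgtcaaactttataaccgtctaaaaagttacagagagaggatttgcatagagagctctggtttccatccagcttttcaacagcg
Ifi35, chr11:101448162-101448461, plus strand: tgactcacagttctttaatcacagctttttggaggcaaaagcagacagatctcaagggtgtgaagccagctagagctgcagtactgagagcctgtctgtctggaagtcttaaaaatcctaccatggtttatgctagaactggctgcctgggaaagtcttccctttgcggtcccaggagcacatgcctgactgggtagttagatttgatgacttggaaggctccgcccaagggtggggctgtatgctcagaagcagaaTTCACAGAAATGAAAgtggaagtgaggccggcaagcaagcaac
Xaf1, chr11:72301379-72301678, plus strand: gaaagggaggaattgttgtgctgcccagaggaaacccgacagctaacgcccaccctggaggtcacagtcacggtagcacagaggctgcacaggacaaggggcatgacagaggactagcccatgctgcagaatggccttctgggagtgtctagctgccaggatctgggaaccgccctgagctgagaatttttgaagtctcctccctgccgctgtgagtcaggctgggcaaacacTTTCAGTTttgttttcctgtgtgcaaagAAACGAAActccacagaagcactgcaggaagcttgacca
Sp100, chr1:85649738-85650037, plus strand: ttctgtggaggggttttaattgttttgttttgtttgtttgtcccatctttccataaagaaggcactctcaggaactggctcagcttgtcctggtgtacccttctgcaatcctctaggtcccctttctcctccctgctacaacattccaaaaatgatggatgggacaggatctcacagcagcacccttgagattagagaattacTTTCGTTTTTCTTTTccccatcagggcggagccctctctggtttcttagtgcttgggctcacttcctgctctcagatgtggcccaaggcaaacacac
Rbm43, chr2:51935114-51935413, minus strand: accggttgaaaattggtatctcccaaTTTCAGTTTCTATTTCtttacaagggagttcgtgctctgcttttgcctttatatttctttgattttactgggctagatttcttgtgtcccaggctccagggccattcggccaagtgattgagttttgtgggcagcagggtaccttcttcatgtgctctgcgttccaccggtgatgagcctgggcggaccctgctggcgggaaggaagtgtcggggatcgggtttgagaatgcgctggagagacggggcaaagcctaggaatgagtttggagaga

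Of the 9 genes, 8 had a window in that table and Tor3a had none. None of the 8 held the response element core, which occurs in 3.44% of the 32851 promoter windows of the table. AANNGAAA lay in 6 of the 8 (Nmi, Ifi35, Epsti1, Xaf1, Sp100 and Pml), against 23.9% of all windows, and TTCNNNGAA lay in Ifi35 alone, against 8.3% of all windows. In Xaf1 the IRF core occurred on both sides of the start, from -17 to -10 and from 12 to 19, and in the printed Sp100 window 2 copies overlapped by a base between -47 and -33. From a second annotated Sp100 start the 2 copies lie between -73 and -59. In Ifi35 the gamma-activated site spanned 8 to 16 and the IRF core 15 to 22. In Nmi and Epsti1 the match was farther upstream, at -174 to -167 and at -249 to -242. The Herc6 and Cmpk2 windows held none of the 3 motifs. A match describes letters and is not evidence of binding, and these windows leave out distal elements and other start sites.

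**Figure D1:**
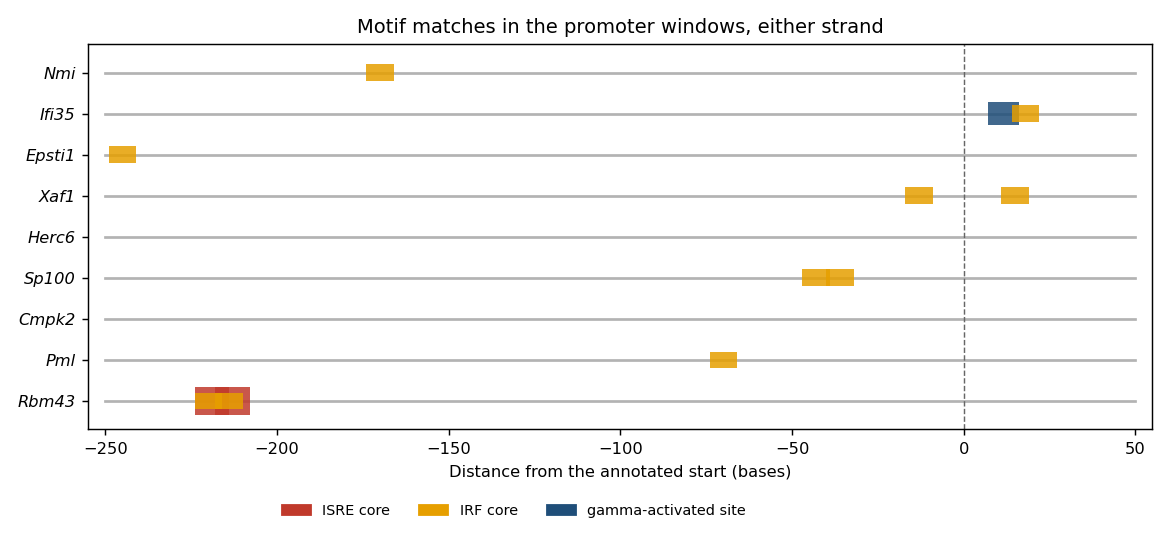
Positions of motif matches on either strand in the RefSeq promoter windows of the 8 genes with a window and of Rbm43 (x axis: distance in bases from the annotated start, dashed line at the start). Rbm43 alone holds the response element core, in 2 overlapping copies, and 6 of the 8 genes hold the IRF core.

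Over the 24 probe sets, the 3 arrays labelled IRF2 lay wholly above the 3 GFP control arrays in 14, wholly below in 0, and overlapped them in 10. Among all 45037 probe sets that are not array controls, 14.2% lay wholly above and 29% wholly above or below. With the brightest probe set standing for each gene, 7 genes were above the intensity filter, and 6 of these were past the threshold and higher, against 16.5% of all genes tested. The 9 genes had a median log2 fold change of 0.46, and all genes tested one of -0.00070. Since the genes were picked on this contrast, nothing is read from these shares. Epsti1 passed the filter only through the arrays labelled IRF2, as it read under 11.3 on each GFP control array. Sp100 and Cmpk2 lay under the filter.

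**Figure D2:**
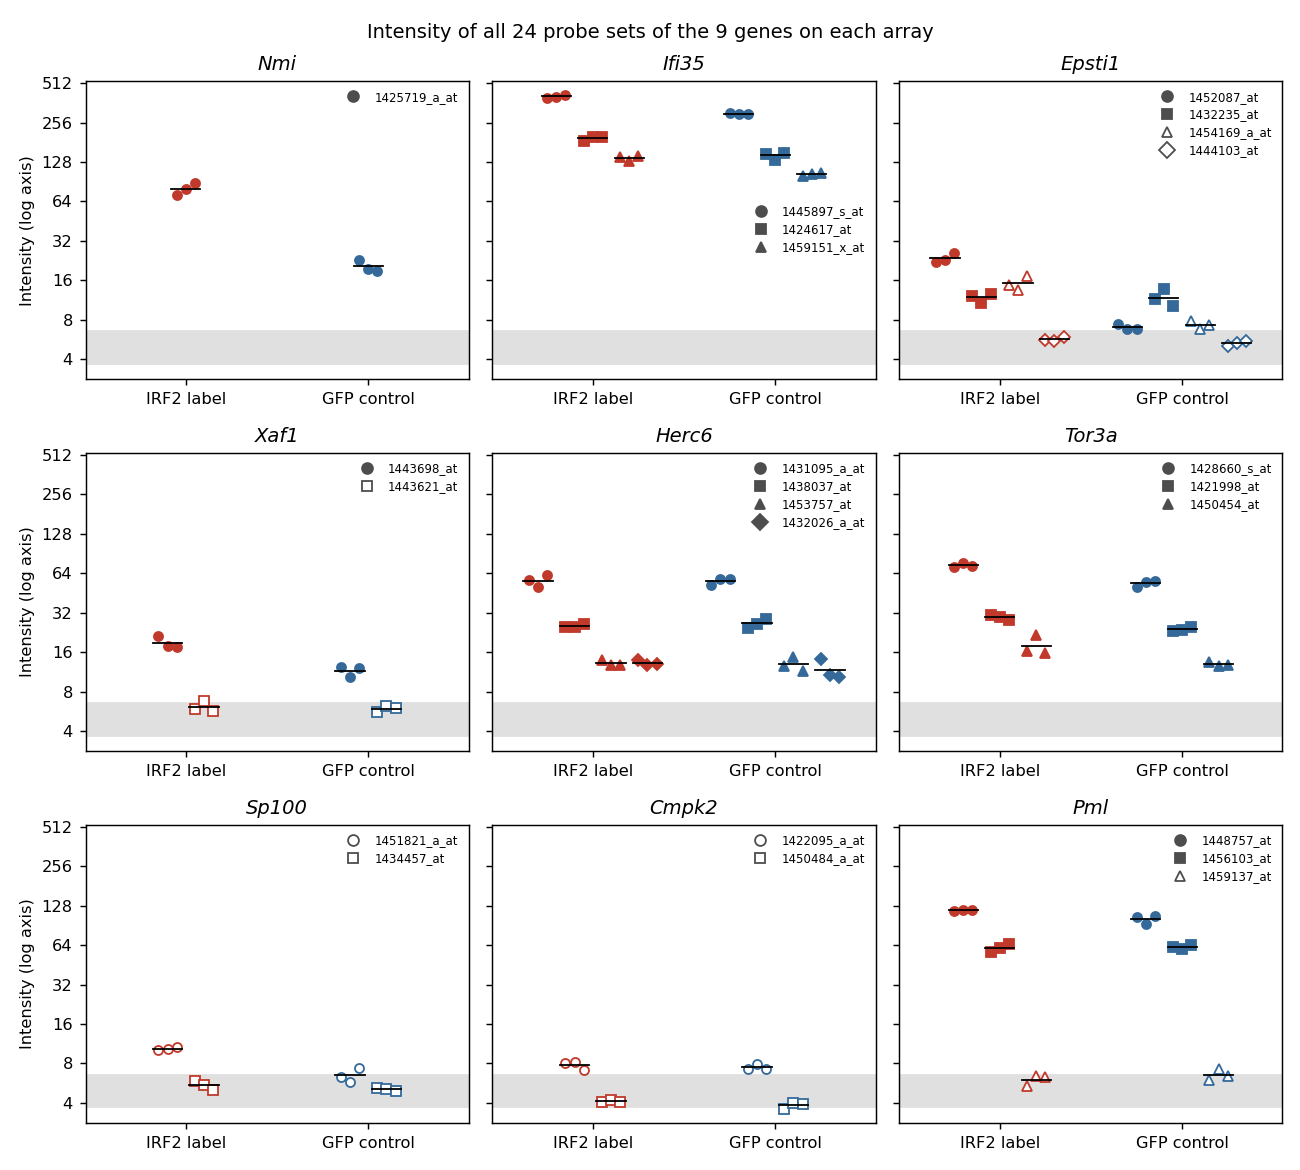
Intensity of every probe set of the 9 genes on each array (log y axis, arrays labelled IRF2 in red on the left, GFP control arrays in blue on the right, black bars are means of 3 arrays, open symbols lie under the intensity filter, the grey band is the range of the tryptophan controls, 3.69 to 6.52). Nmi and 2 of the 4 Epsti1 probe sets stand clear of their GFP control values, Ifi35 and Tor3a shift by less in all of their probe sets, and those of Herc6 overlap throughout.

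Nmi showed the largest difference of the 9 genes. Its product, the N-myc interactor, is known from human cells to bind STAT and Myc family proteins and to hold Ifi35 in a cytoplasmic complex. Its single probe set (1425719_a_at) read 72.1, 79.1 and 88.9 on the arrays labelled IRF2 and 22.8, 19.7 and 18.9 on the GFP control arrays. The suffix marks a probe set that can match several transcripts, and no other probe set was there to check it. All 3 arrays labelled IRF2 lay well above all 3 control arrays. The means were 80.0 ± 8.40 on the arrays labelled IRF2 and 20.4 ± 2.07 on those with GFP (SD, n = 3 each), a 3.91-fold difference (log2 fold change 1.97, SE 0.09). It came to 1.40 with 16 added to each intensity before the log, and to between 1.89 and 2.05 when any array was left out.

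Ifi35, the leucine zipper protein that partners with Nmi, differed less, in 3 probe sets. Its brightest probe set (1445897_s_at) read 395, 404 and 419 on the arrays labelled IRF2 and 301, 297 and 298 on the GFP control arrays. The second (1424617_at) read 185, 199 and 199 against 147, 133 and 150, and the third (1459151_x_at) 139, 129 and 141 against 100, 103 and 106. All 3 probe sets separated the groups, and they gave nearly the same size: the log2 fold change was 0.44 in the first (SE 0.03), 0.44 in the second (SE 0.05) and 0.40 in the third (SE 0.05). The 3 estimates differed by less than the standard error of the third. The suffixes of the first and the third mark probe sets that can match more than a single transcript.

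Epsti1 was divided between its probe sets. The brightest over all arrays (1452087_at) read 22.0, 23.1 and 25.8 on the arrays labelled IRF2 and 7.48, 6.85 and 6.79 on the GFP control arrays, a 3.35-fold difference (log2 fold change 1.74, SE 0.09). A further probe set (1454169_a_at) read 14.7, 13.6 and 17.3 against 7.76, 6.80 and 7.35 (1.05, SE 0.11). Both were thus higher on all 3 arrays labelled IRF2, and the control values of both lay just above the tryptophan controls, so these folds are sensitive to a constant. Adding 16 to each intensity brought them to 0.78 and 0.42. The other probe sets differed less: 1432235_at read 12.2, 10.8 and 12.5 against 11.5, 13.6 and 10.3 (0.01, SE 0.11), and 1444103_at read 5.55 to 5.88 on the arrays labelled IRF2 and 5.09 to 5.54 on the GFP control arrays, without overlap but inside the range of the tryptophan controls (0.10, SE 0.08). The mean of the 4 probe sets gave 0.73. The geometric mean over the 6 arrays was 12.9 for 1452087_at and 11.8 for 1432235_at, and without any single array labelled IRF2 the flat probe set became the brighter and stood for the gene, at -0.016, 0.077 and -0.032. With 1452087_at kept, the log2 fold change ran from 1.68 to 1.79 when any array was left out.

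Xaf1, known from human cells as an antagonist of the caspase inhibitor XIAP, was higher in 1 of its 2 probe sets. That probe set (1443698_at) read 21.2, 17.7 and 17.7 on the arrays labelled IRF2 and 12.3, 10.3 and 12.1 on the GFP control arrays. The groups did not overlap, and the log2 fold change was 0.70 (SE 0.11; 0.34 with 16 added before the log, and 0.37 in the mean of both probe sets). The other (1443621_at) read 5.66 to 6.82 on the arrays labelled IRF2 and 5.60 to 6.15 on the GFP control arrays, near the top of the tryptophan control range, and overlapped.

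Tor3a encodes a torsin, a AAA+ ATPase of the endoplasmic reticulum, and is induced by interferon in human cells. Its brightest probe set (1428660_s_at) read 72.0, 77.0 and 72.2 on the arrays labelled IRF2 and 50.5, 54.5 and 56.3 on the GFP control arrays (log2 fold change 0.46, SE 0.06). The others read 30.8, 29.9 and 27.96 against 23.4, 23.4 and 24.99 (1421998_at; 0.30, SE 0.08), and 16.3, 21.5 and 15.7 against 13.5, 12.6 and 12.8 (1450454_at; 0.45, SE 0.11). All 3 probe sets were higher on every array labelled IRF2, and the replicate 2 array labelled IRF2 was the high value of the dimmest. Without that array 1450454_at came to 0.31.

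Pml and Sp100 encode the scaffold and a resident protein of nuclear bodies, SUMO-dependent assemblies that grow after interferon. The brightest Pml probe set (1448757_at) read 116, 118 and 119 on the arrays labelled IRF2 and 105, 93.1 and 107 on the GFP control arrays. This difference was small, with a log2 fold change of 0.21 (SE 0.06), and the replicate 2 GFP control array was its lowest value (0.15 without it). In the mean of the 3 probe sets Pml came to 0.021. The other bright Pml probe set (1456103_at) read 56.4, 60.7 and 64.9 against 61.5, 60.2 and 64.2 and overlapped (-0.03, SE 0.06), as did the dim 1459137_at, so the 3 probe sets of Pml disagreed in sign. Sp100 lay under the filter. Its brighter probe set (1451821_a_at) read 10.2, 10.3 and 10.7 on the arrays labelled IRF2 and 6.31, 5.74 and 7.36 on the GFP control arrays (0.69, SE 0.10). The groups did not overlap, but the control values reached into the range of the tryptophan controls and the difference came to 0.23 with 16 added before the log and to 0.40 in the mean of both probe sets. The second probe set (1434457_at) stayed between 4.91 and 5.85 on all 6 arrays (0.11, SE 0.08).

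Herc6 and Cmpk2 showed no difference beyond the spread of the arrays in their brightest probe sets. Herc6 is the main ISG15 ligase of mouse cells. Its brightest probe set (1431095_a_at) read 56.8, 49.9 and 62.3 on the arrays labelled IRF2 and 52.3, 58.0 and 58.2 on the GFP control arrays (log2 fold change -0.0014, SE 0.08). Its 3 further probe sets gave -0.07 (SE 0.08), 0.03 (SE 0.10) and 0.19 (SE 0.12), and the groups overlapped in all 4. Cmpk2, the mitochondrial kinase of UMP and CMP, read 8.04, 8.14 and 7.10 on the arrays labelled IRF2 and 7.19, 7.92 and 7.22 on the GFP control arrays in its brighter probe set (0.06, SE 0.09). The dimmer (1450484_a_at) did not overlap, at 4.03 to 4.23 against 3.57 to 3.97, but lay inside the range of the tryptophan controls. No change of Cmpk2 was thus detected in its brighter probe set, and at this dim signal a small change could be missed.

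**Figure D3:**
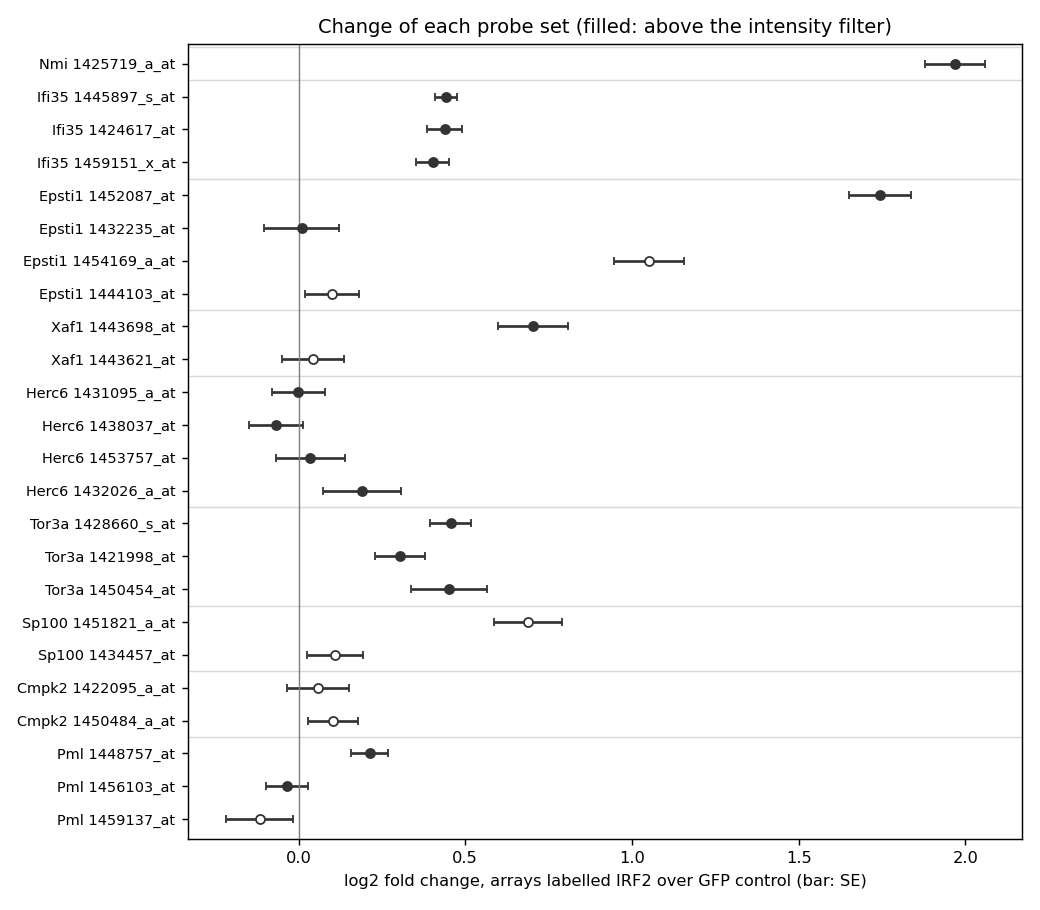
Log2 fold change of each probe set, arrays labelled IRF2 over GFP control (points, with bars of 1 SE from limma on all probe sets, filled where the probe set lies above the intensity filter). The values run from -0.12 for 1459137_at of Pml to 1.97 for Nmi, and Epsti1, Xaf1, Sp100 and Pml each have probe sets near 0 beside a higher one.

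The tested genes whose pattern was most like that of Nmi, by the Euclidean distance between log2 profiles over the 6 arrays, each centred on its own GFP control mean, were Igtp (distance 0.28), Car3 (0.30) and Parp14 (0.32). Igtp encodes an interferon-inducible GTPase, Car3 a carbonic anhydrase and Parp14 an interferon-induced ADP-ribosyltransferase. For Ifi35 they were the transcription factor gene Sox4 (0.04), the cadherin gene Cdh13 (0.04) and Angptl4 (0.05), a secreted lipase inhibitor, none of which is a textbook interferon-stimulated gene. For Epsti1 they were Ifi27 (0.20), Igtp (0.25) and Shfl (0.26), all interferon-stimulated genes. The distance follows mainly the size of the difference between the groups, on which the 9 genes were chosen. Such likeness is therefore a description and no support for a shared control. The other probe set of Parp14 gave a log2 fold change of 0.03.

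The chromosomal neighbours of the 9 genes were examined because position played no part in their choice. The nearest gene above the filter on each side gave 18 neighbours, of which 4 rose and 3 fell in limma's test across all genes, where 16.5% of all genes rose and 19.8% fell. The clearest was Rbm43, an RNA-binding protein gene on the lower side of Nmi on chromosome 2 with no other protein-coding gene between them. It read 63.5 ± 6.89 on the arrays labelled IRF2 and 28.7 ± 3.02 on those with GFP (SD, n = 3 each; log2 fold change 1.14, SE 0.09, limma adjusted p = 1.21e-07). Its promoter window, printed above, holds 2 overlapping copies of the response element core between -224 and -209, and a second annotated window of Rbm43 holds none. On the other side of Nmi, Rif1, a factor in replication timing and DNA repair, fell by 0.36 (SE 0.04, limma adjusted p = 2.66e-06).

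Next to Pml, Stoml1 rose by 0.26 (SE 0.06, limma adjusted p = 0.00235), and next to Herc6, Pyurf rose by 0.18 (SE 0.04, adjusted p = 0.00351). Abl2, a tyrosine kinase gene beside Tor3a, fell by 0.24 (SE 0.03, adjusted p = 1.81e-05). The calls of Rpl27 beside Ifi35 (-0.05, limma adjusted p = 0.0398) and of 4933409F18Rik beside Cmpk2 (0.26, adjusted p = 0.0444) were lost under quantile normalization, and when most single arrays were left out. The neighbours of Epsti1, Dnajc15 and Fam216b, differed by -0.01 (SE 0.04) and 0.02 (SE 0.12), and those of Xaf1 by -0.05 (SE 0.08) and 0.0050 (SE 0.06). Rsad2, the viperin gene that lies beside Cmpk2 and makes an antiviral nucleotide from the kinase's product, read 18.03 ± 0.658 on the arrays labelled IRF2, against 19.8 ± 0.314 on those of the GFP control (SD, n = 3 each; -0.13, SE 0.08, limma adjusted p = 0.215; 0.0366 without the intensity trend). Sp110, a nuclear body gene near Sp100, differed by 0.20 (SE 0.09, adjusted p = 0.104).

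**Figure D4:**
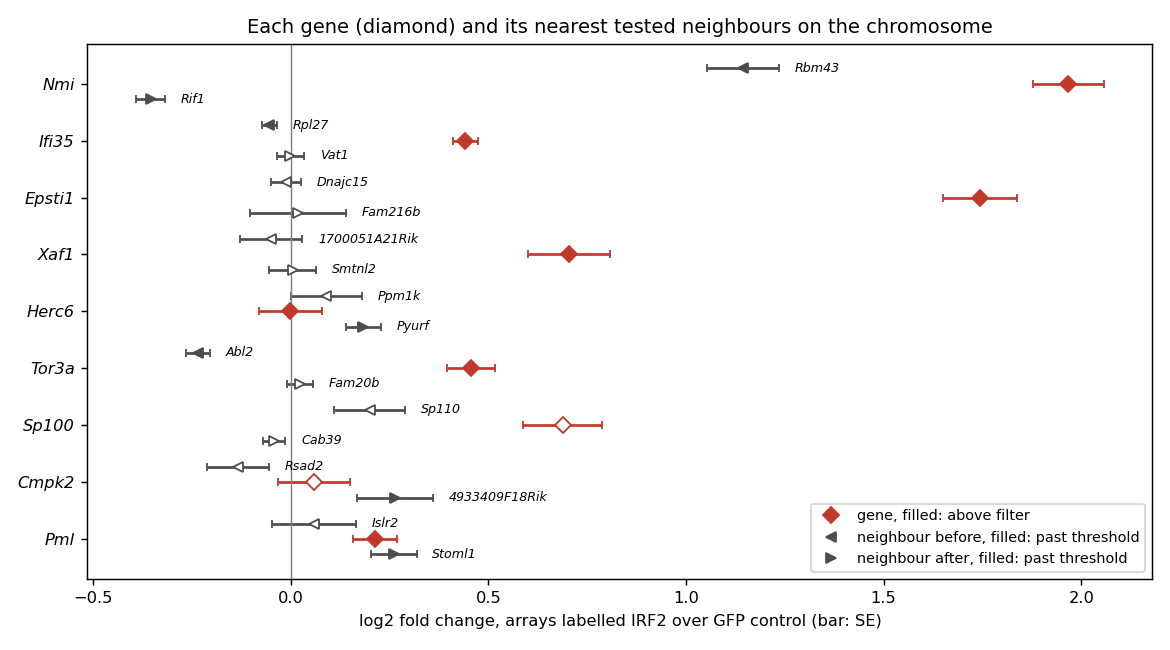
Log2 fold change, arrays labelled IRF2 over GFP control, of each gene's brightest probe set (red diamonds) and of its nearest tested neighbour on each side of the chromosome (grey triangles, filled where past the threshold), with bars of 1 SE. Rbm43 beside Nmi, at 1.14, is the only neighbour above 0.3.

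The partners of these genes were examined in lists drawn up from their known roles. Among 13 tested receptors and signal transducers of the interferons, 7 rose and 2 fell, where 16.5% of all tested genes rose and 19.8% fell. Their log2 fold changes had a median of 0.09. Ifnar2, a chain of the type I receptor, averaged 279 ± 8.76 on the arrays labelled IRF2 and 228 ± 3.23 on those with GFP (SD, n = 3 each; 0.29, SE 0.04, limma adjusted p = 1.22e-05). Il10rb, the receptor chain shared by type III interferons and interleukin 10, rose by 0.38 (SE 0.03; 0.21 averaged over its probe sets), and Irf9 rose by 0.47 (SE 0.07). Socs3, a feedback inhibitor, fell by 0.23 (SE 0.05), a call that was lost without the probe sets that can match several transcripts (-0.12, adjusted p = 0.103). Of 6 measured interferon genes, Ifna1 alone lay above the filter, at 0.04 (SE 0.12, limma adjusted p = 0.821). Ifnb1 averaged 10.1 on the arrays labelled IRF2 and 10.02 on the GFP control arrays. Of 6 tested interferon regulatory factors, Irf7 (0.42, SE 0.10; 0.19 with 16 added before the log) and Irf9 rose and Irf2 fell, and Irf1 differed by 0.08 (SE 0.05, limma adjusted p = 0.205). Irf7 read 12.4, 11.6 and 10.03 on the GFP control arrays, close to the filter intensity of 11.3. It thus passed the filter largely through the arrays labelled IRF2.

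Of 37 other interferon-stimulated genes above the filter, 24 rose and 4 fell, where 16.5% of all tested genes rose and 19.8% fell. The median of their log2 fold changes was 0.42. Ifi27, Lgals3bp and Ifitm3 rose by 1.81, 1.25 and 0.80 (SE 0.05, 0.04 and 0.03). Samd9l averaged 57.1 on the arrays labelled IRF2 and 7.67 on the GFP control arrays (2.90, or 1.62 with 16 added before the log). It lay under the filter on all 3 GFP control arrays and passed it only through the arrays labelled IRF2, as did Dhx58 and Ube2l6, so their calls are no support. Samd9l, Dhx58 and Ube2l6 are part of the 24 and of the median, as is Irf7, which passed the filter largely through those arrays. The count and the median are therefore a description only. Some classical targets did not pass the threshold, among them Oas2 (-0.03, SE 0.08) and Mx2 (-0.06, SE 0.11), which were named after their values were seen. Ifit2, Ifit3, Oasl1 and Samhd1 fell.

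Of 11 tested binding partners reported for Nmi and Ifi35, 2 rose and 2 fell, with a median of 0.01, where 16.5% of all tested genes rose and 19.8% fell. Trim21, an antibody receptor and ubiquitin ligase that is itself interferon-stimulated, averaged 40.9 ± 4.14 on the arrays labelled IRF2 and 24.1 ± 0.88 on those with GFP (SD, n = 3 each; 0.76, SE 0.08, limma adjusted p = 4.03e-06; 0.50 with 16 added before the log). Brca1 and Myc fell by 0.22 and 0.14 (SE 0.03 each). Stat6 rose by 0.14 (SE 0.04, adjusted p = 0.0238), but lost its call in 4 of the 6 fits that left out an array and when averaged over its probe sets (0.07).

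In the ISG15 pathway that Herc6 serves, 2 of 3 tested genes rose, where 16.5% of all tested genes rose. Ube2l6, the conjugating enzyme, averaged 18.1 ± 0.614 on the arrays labelled IRF2 and 9.96 ± 1.2 on those with GFP (SD, n = 3 each; 0.87, SE 0.10; 0.40 with 16 added before the log). Ube2l6 lay under the filter on all 3 GFP control arrays and passed it only through the arrays labelled IRF2. Its call is therefore no support, and the 2 of 3 is a description only. The 2 rising genes are also counted among the other interferon-stimulated genes. Trim25 rose by 0.10 (SE 0.03, adjusted p = 0.0164), a call lost without the replicate 2 array of either group. Uba7, the activating enzyme, differed by 0.02 (SE 0.07, adjusted p = 0.857) in its brightest probe set and by up to 0.65 in another, and passed when averaged over its probe sets (0.33, limma adjusted p = 0.00366). The deconjugating enzyme gene Usp18 lay under the filter. Of the 4 tested relatives of Herc6, only Herc2 rose, by 0.14 (SE 0.05, limma adjusted p = 0.0244). It did not pass when averaged over its probe sets (0.03), nor without the replicate 2 GFP control array or the replicate 2 or 3 array labelled IRF2. Isg15 had no probe set named to it alone and was not analysed here.

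Among 14 tested nuclear body genes related to Pml and Sp100, 3 rose and 2 fell, with a median of 0.01, where 16.5% of all tested genes rose and 19.8% fell. In the mean of probe sets 1 of 13 rose and 4 fell. The kinase gene Hipk2 rose by 0.32 (SE 0.03, limma adjusted p = 4.76e-07), while its 8 probe sets ran from -0.09 to 0.32 with a mean of 0.14, and the SUMO ligase gene Pias1 rose by 0.17 (SE 0.04; 0.11, not passing when averaged over its probe sets). The histone chaperone gene Daxx fell by 0.23 (SE 0.05), and Rnf4, the ubiquitin ligase that degrades SUMO-modified PML, fell to 725 ± 8.25 on the arrays labelled IRF2, against 876 ± 21.3 on those with GFP (SD, n = 3 each; -0.27, SE 0.03, limma adjusted p = 8.6e-07). Of 9 inhibitor of apoptosis and caspase genes related to Xaf1, 2 rose and 1 fell. Birc2, a ubiquitin ligase of the inhibitor of apoptosis family, rose by 0.40 (SE 0.06) and Apaf1, the apoptosome scaffold, by 0.15 (SE 0.04), and Birc5, which encodes the mitotic protein survivin, fell by 0.18 (SE 0.02). Xiap, the protein that Xaf1 opposes, differed by 0.05 (SE 0.03, adjusted p = 0.287).

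Of 6 torsin genes and cofactors, 1 rose and 2 fell, where 16.5% of all tested genes rose and 19.8% fell. Tor4a rose by 0.27 (SE 0.04, limma adjusted p = 2.39e-05), Tor2a fell by 0.18 (SE 0.04), and the call of Tor1aip2 (-0.08) was lost under quantile normalization. Nucleotide kinases and related enzymes, the family of Cmpk2, had a median of -0.13: of 15 tested, 8 fell and 1 rose. Nme1 (-0.23, SE 0.02), Tk1 (-0.16, SE 0.02) and the cytosolic UMP-CMP kinase Cmpk1 (-0.16, SE 0.02) fell. Averaging over probe sets ended the call of Cmpk1 (-0.14, limma adjusted p = 0.0882) and that of Samhd1 (-0.07, adjusted p = 0.281). Over all 109 tested genes of these lists, 38 rose and 21 fell, with a median of 0.03, beside 16.5% and 19.8% of all tested genes. Samd9l, Dhx58 and Ube2l6, which passed the filter only through the arrays labelled IRF2, are among the 38. So is Irf7, which passed it largely through those arrays.

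**Figure D5:**
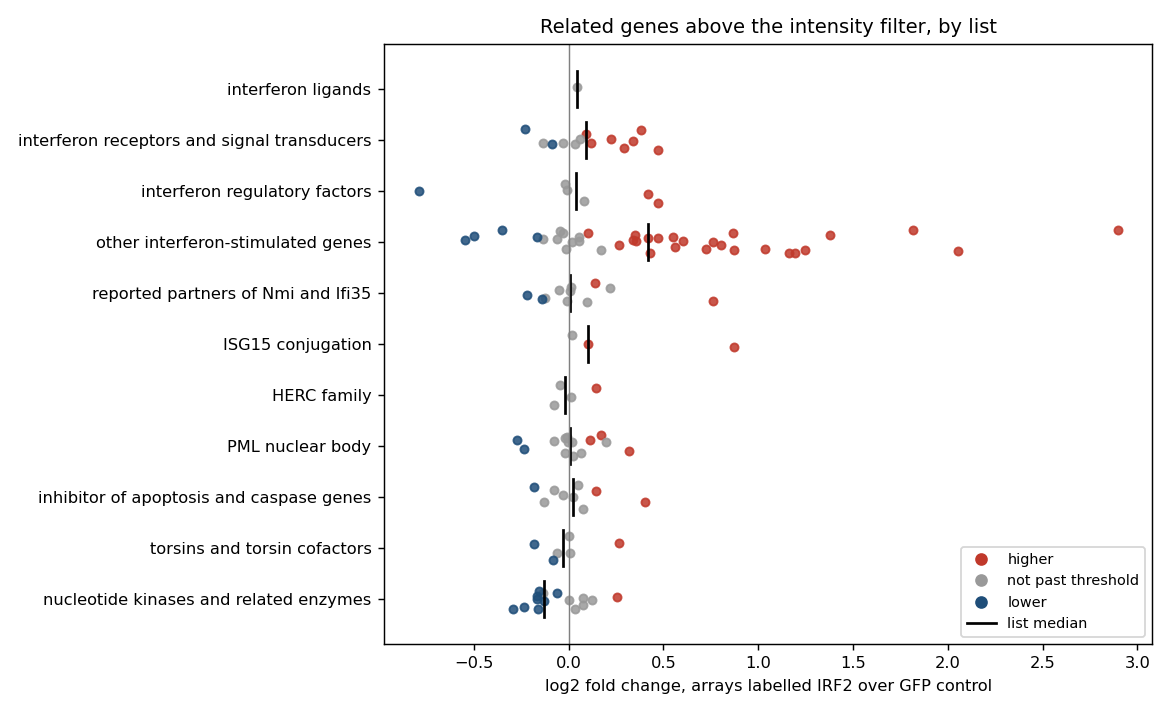
Log2 fold change, arrays labelled IRF2 over GFP control, of each related gene above the intensity filter (points, red where higher and blue where lower at an adjusted p of 0.05, grey otherwise, black bars are list medians, vertical scatter within a list has no meaning). The other interferon-stimulated genes, with Samd9l, Dhx58, Ube2l6 and Irf7 included, have a median of 0.42, and the medians of the other lists lie between -0.13 and 0.10.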

How the data were processed

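Total RNA was measured on 6 Affymetrix 3' expression arrays. The authors deposited intensities per probe set on a linear scale, with array medians of 18.2 to 18.7. The submitters' processing notes list MAS5 without saying what it did or which version was run, and no source states the scaling. No detection calls were used, and the number of arrays limits the precision.

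Gene names came from GEO's platform annotation and were updated through RefSeq. It gives 1 symbol for 34945 probe sets, several for 932, which were not used as genes, and none for 9160. The brightest probe set stood for a gene. Genes over the 40th percentile of mean log2 intensity entered a linear model in limma 3.58.1 (R 4.3.3; moderated with an intensity trend, 4 residual degrees of freedom), two-sided, with Benjamini-Hochberg adjustment over 12795 genes. The 24 probe sets were fitted among all 45037 non-control probe sets without a filter. The fit was tested on simulated data over 12795 genes, of which 200 were changed. It called 42% of simulated log2 differences of 0.2, 88% of 0.5 and 98% of 1. In these arrays 36.3% of genes were called, and the adjustment depends on that share, so these rates need not hold here.

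The 9 genes, the lists and the tests were chosen with earlier results of these data known. Named genes are all probe sets of the 9, up to 4 genes a list by smallest p, the neighbours and the 3 most alike genes. Genes named outside that rule (Oas2, Mx2, Ifit2, Ifit3, Oasl1, Usp18, Xiap, Ifnb1 and single markers) were chosen after their values were seen. Alternatives covered normalization, the constant added, filters, probe set rules, variance model, replicate block and leaving out each array. Same-numbered arrays showed no shared deviation (correlations 0.07, -0.08 and -7.71e-04), and differently numbered arrays gave -0.11 to 0.11. With 3 arrays a group this cannot exclude a pairing. The main fit used none.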

Additional observations from a re-analysis of the deposited data

How the results depend on the processing

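The count of 4642 genes ran from 3800 to 4678 over all alternatives, that of 59 related genes from 44 to 60, and that of 7 neighbours from 5 to 7, all within 1.5 times. With the replicate block they were 4678, 60 and 7, and in the lists it moved 7 rising receptors and transducers to 6, 2 rising binding partners to 3, 1 rising nucleotide enzyme to 2 and 38 rising related genes to 39. It changed no call of a gene named by the rule. Without each array in turn, the 3 counts ran from 3960 to 4409, from 52 to 59 and from 5 to 6. The median log2 fold change of the 9 genes, 0.46, came to 0.34 with 16 added before the log and ran from 0.42 to 0.49 without each array. It came to 0.30 over the 7 genes left without probe sets that can match several transcripts. That alternative drops Nmi, the gene with the largest difference, and Cmpk2, so its median covers other genes. Sp100 came to 0.11 without such probe sets. Epsti1 turned to -0.016 and -0.032 without the replicate 1 or 3 array labelled IRF2, where another of its probe sets became the brightest. A refit with its probe set kept, chosen after seeing the data, gave 1.68 to 1.79. Pdgfrb, a fibroblast marker, differed by -0.40, but by 0.087 without the probe sets that can match several transcripts; the cause was not tested. Under the 60th percentile filter, which tests fewer genes, 18 and not 28 other interferon-stimulated genes passed. Without the probe sets that can match several transcripts, which leaves 9 nucleotide enzymes and 2 interferon regulatory factors to test, 5 and not 9 of the enzymes and 0 and not 3 of the factors passed. Irf2, Irf7 and Irf9 have no other probe set and were not tested there. The count of 2 ISG15 pathway genes came to 1 in 5 alternatives and to 3 in the mean of probe sets, and that of 1 Herc6 relative to 0 in 4. Dim signal limits Sp100, Cmpk2 and the low control values of Epsti1.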
